A study of Mus musculus with 5 samples.

Results

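The genes described here are 10 members of the Notch pathway that act at the cell surface or modify the proteins there: the ligands Dll1, Dll3, Dll4, Jag1 and Jag2, the receptors Notch1 and Notch2, and the fringe enzymes Lfng, Mfng and Rfng. They were taken by symbol from the deposited table, where all 10 of 10 were found among 24594 genes. Messenger RNA had been sequenced from mouse retinal cells in 3 libraries labelled Zfp292-OE and 2 control libraries. Newborn pups (postnatal day 0) were electroporated with a plasmid carrying Zfp292, a large nuclear zinc finger protein, or with one carrying green fluorescent protein (GFP), each under the CAG promoter, which is active in most cell types. Retinas were dissociated 4 days later and GFP-positive cells, called RPC in the labels, were sorted. The labels state neither the mouse strain nor whether libraries came from separate animals, so p-values measure the spread between these libraries, which may be technical.

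Notch signalling passes between touching cells. A Delta or Jagged ligand on one cell binds a Notch receptor on the next, proteases then free the intracellular part of the receptor, and this part joins Rbpj in the nucleus and switches on repressors such as Hes1 and Hes5. In the growing retina the pathway is known for keeping progenitors from differentiating while neighbours that make Delta ligands become neurons. Fringes are Golgi enzymes that add a sugar to the O-fucose on Notch and so change which ligands it answers to.

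No rise of Zfp292 itself was detectable where the label says it was overexpressed. Its level came to 14631, 13197 and 15534 normalised counts in libraries 1, 2 and 3 labelled Zfp292-OE and 13288 and 14756 in control libraries 1 and 2, which is a log2 fold change of 0.04 (SE 0.14; limma adjusted p = 0.87). Every direction below is therefore that of the labels. Depth was 103096224 to 137683716 reads assigned to genes per library. Beside progenitor transcripts, those of rods were plentiful in all 5 libraries. The 10 progenitor markers summed to 204120 to 283232 normalised counts in the libraries labelled Zfp292-OE and 174601 and 195969 in the controls, and the 8 rod markers to 150892 to 166405 normalised counts in the libraries labelled Zfp292-OE and 576192 and 699943 in the controls. All 8 rod markers and 6 of 7 bipolar markers were lower in the libraries labelled Zfp292-OE, while the proliferation marker Mki67 was higher (12276 to 23145 against 3298 and 4406). Their part in the results on Notch genes was not tested, and in such bulk samples fewer cells of a type and less RNA per cell cannot be told apart.

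Of the 10 genes, 1 fell and 0 rose in the libraries labelled Zfp292-OE at a limma adjusted p below 0.05, and 9 did not pass. The gene that fell was the ligand Jag2. Over all 16316 genes tested 17.4% passed, 10% higher and 7.38% lower, so 1 of 10 is not a larger share than the background. The median log2 fold change of the 10 was 0.09, beside -0.06 over all genes tested. The groups did not overlap for 1 of the 10 (Jag2), while they did not overlap for 49.9% of all genes tested (25.7% with the labelled libraries lower). All 10 passed the filter of a mean value of 10.

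**Figure D1:**
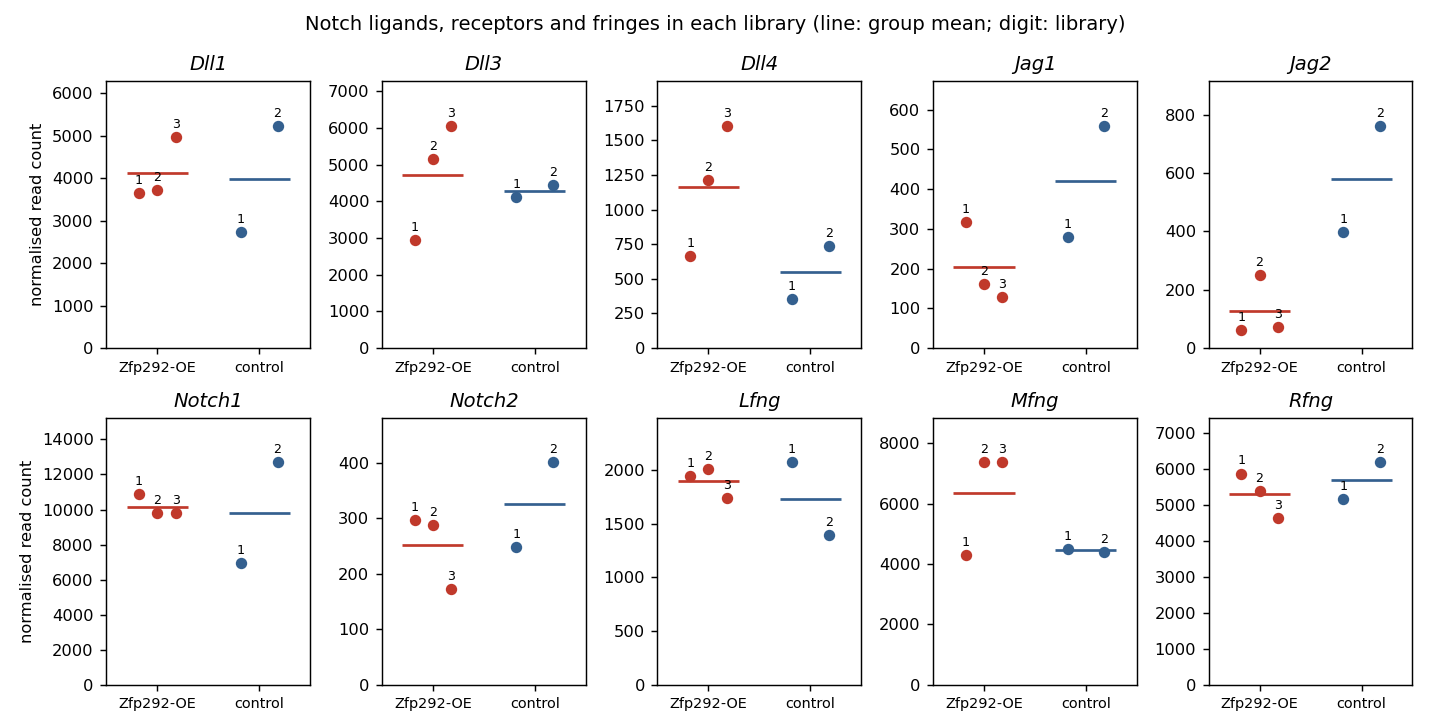
Normalised read count (y axis, linear, from 0) of each gene in the 3 libraries labelled Zfp292-OE (red) and the 2 control libraries (blue); digits give the library and lines the group mean. Only for Jag2 do the groups stay apart, with 61.6 to 251 against 397 and 763.

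Jag2, a Jagged ligand (Entrez 16450, GRCm38 chromosome 12, 112907803 to 112929812), was counted at 61.6, 251 and 72.2 in libraries 1, 2 and 3 labelled Zfp292-OE, from 54, 267 and 69 reads. The control libraries had 397 and 763, from 364 and 991 reads. Each library labelled Zfp292-OE lay below both controls, and library 2 stood well above the other two of its group. Group means came to 128 ± 106 (SD, n = 3) and 580 ± 259 (SD, n = 2), which is -2.39 on the log2 scale (SE 0.69, 95% interval -3.93 to -0.86), or 5.25-fold lower. Jag2 passed narrowly, at a limma adjusted p of 0.040. It did not pass in edgeR (adjusted p = 0.055), which called 0 of the 10 and 16.1% of all genes, and did in DESeq2 (adjusted p = 0.015), which called 1 of the 10 and 26% of all genes. In limma the call was also lost without library 1 labelled Zfp292-OE (adjusted p = 0.098) or library 3 (0.078). It was lost too with no filter (0.078) and after quantile normalization (0.077). With 1 control left, that control is assumed to vary like the other libraries. Those fits therefore cannot show whether a call holds, and only their log2 fold changes are given. Without library 2 labelled Zfp292-OE the log2 fold change was -3.03 (limma adjusted p = 0.0086), and the values without one of the other 4 libraries ran from -2.86 to -1.92.

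Jag1, the other Jagged ligand (chromosome 2, 137081451 to 137116520), had 317, 162 and 130 in the libraries labelled Zfp292-OE and 280 and 560 in the controls. Library 1 labelled Zfp292-OE lay between the controls, so the groups overlapped. Libraries labelled Zfp292-OE averaged 203 ± 100 (SD, n = 3) for Jag1 and control libraries 420 ± 198 (SD, n = 2), so that its log2 fold change came to -1.07 (SE 0.56, 95% interval -2.32 to 0.18; limma adjusted p = 0.22). It was -0.57 without control library 2 and -1.57 without control library 1.

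Both Jagged genes are known in other cells that could be present in a sorted retinal sample, Jag1 above all in blood vessels. Of 7 mural cell markers 4 fell and 3 did not pass, and their summed level was 670 to 901 in the libraries labelled Zfp292-OE and 1667 and 3303 in the controls. Most of the sum in the libraries labelled Zfp292-OE came from Notch3, which is in this list and did not pass. It had 487, 437 and 513 there, and 345 and 497 in control libraries 1 and 2. The pericyte gene Rgs5 had 0, 16.0 and 2.09 counts in libraries 1, 2 and 3 labelled Zfp292-OE, beside 1233 and 461 in control libraries 1 and 2. Endothelial markers gave a sum of 39475 to 48114 against 42871 and 51748, most of it from Kdr (31624 to 41822 against 39920 and 48368), which retinal progenitors also express, and 2 of 8 tested rose. Cldn5 rose, with 1995, 3227 and 1728 in libraries 1, 2 and 3 labelled Zfp292-OE against 234 and 203. Egfl7 also rose, with 3434, 4153 and 3113 against 1688 and 1801, and 6 of the tested endothelial markers did not pass. Among these, Emcn (log2 fold change -4.94), Esam (-2.89) and Flt1 (-1.20) lay below both controls in each library labelled Zfp292-OE. Tek (2.72, from 1, 69 and 1 reads) lay above both, and for Pecam1 (0.50) and Kdr (-0.27) the groups overlapped. The endothelial cadherin Cdh5 was at 0 in 4 of the 5 libraries and Tie1 in 3. Of 7 Müller glia markers 1 rose and 4 fell, with sums of 250193 to 329701 against 555730 and 686486. Astrocyte markers summed to 15031 to 28670 against 55570 and 64209, and 4 of 6 fell. Microglial markers summed to 330 to 3071 against 2368 and 7748, with 0 of 7 called in limma. The part of these cells in the Jagged values was not tested.

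Dll4, a Delta ligand best known from sprouting vessels and also made by newborn retinal neurons (Entrez 54485, chromosome 2, 119325784 to 119335666), had 666, 1211 and 1607 counts in libraries 1, 2 and 3 labelled Zfp292-OE. The controls had 357 and 736. Libraries 2 and 3 lay above both controls and library 1 between them. Dll4 averaged 1161 ± 472 (SD, n = 3) against 547 ± 268 (SD, n = 2) in the controls, a difference of 1.09 on the log2 scale (SE 0.44, 95% interval 0.10 to 2.07). The unadjusted p was 0.034 and the limma adjusted p 0.12. Over the alternatives that kept both controls, the adjusted p ran from 0.063 to 0.27. These ends were the limma fits without library 1 and without library 3 labelled Zfp292-OE. Its value was 0.57 without control library 1 and 1.61 without control library 2.

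The exons of Gm14207, a non-coding gene on the opposite strand, share 214 bases with the exons of Dll4 in GENCODE M21 (GRCm38), and whether reads were counted by strand is not given in the sources used here. Gm14207 had 1568, 4084 and 860 counts in the libraries labelled Zfp292-OE and 183 and 283 in the controls, a log2 fold change of 2.95 (SE 0.56) with a limma adjusted p of 0.0074 (range over 15 alternatives 2.5e-13 to 0.16). Its log2 fold change was 2.35 without library 2 labelled Zfp292-OE and 3.47 without library 3. Whether the pair share reads was not tested.

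Dll1, a Delta ligand that activates Notch on neighbouring cells (Entrez 13388, chromosome 17, 15367354 to 15376932), had 3652, 3731 and 4959 in the libraries labelled Zfp292-OE and 2740 and 5237 in the controls. All 3 values lay between the controls. Its log2 fold change was 0.10 (SE 0.27, 95% interval -0.51 to 0.71) and its sign turned with the scaling, at -0.11 after scaling to equal totals. The limma adjusted p was 0.82. Its exons share 867 bases with A930024N18Rik, a non-coding gene on the opposite strand that was not analysed here, so part of these reads is uncertain.

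Dll3, an unusual Delta protein that is held mostly inside the cell and does not activate Notch on neighbours (Entrez 13389, chromosome 7, 28293555 to 28301785), had 2958, 5152 and 6066 in the libraries labelled Zfp292-OE. The controls had 4121 and 4444, so library 1 lay below both and libraries 2 and 3 above both. This gave a log2 fold change of 0.08 (SE 0.28, 95% interval -0.54 to 0.70; -0.14 after scaling to equal totals), with a limma adjusted p of 0.87.

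**Figure D2:**
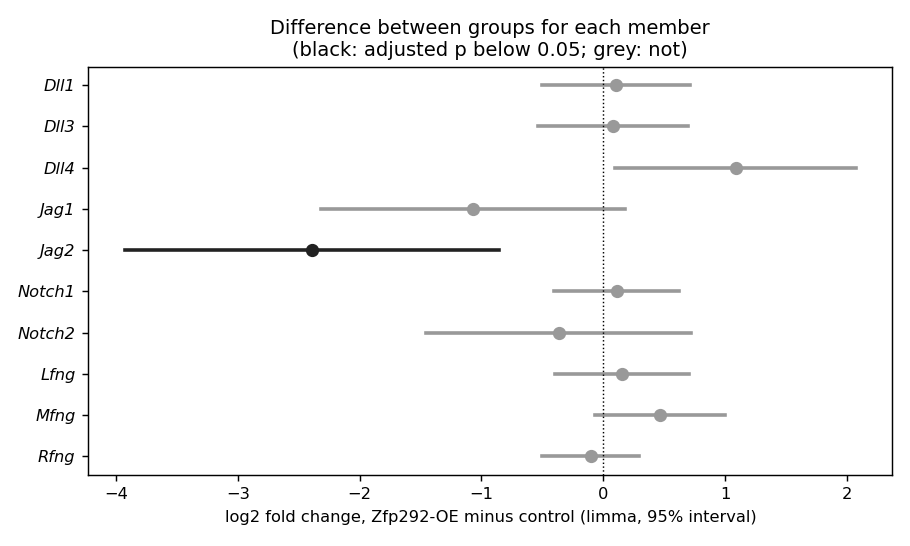
Log2 fold change (x axis, libraries labelled Zfp292-OE minus control) of each gene with its 95% interval from limma; black marks an adjusted p below 0.05. Jag2 at -2.39 is the 1 gene in black, and only Jag2 and Dll4 (1.09) have intervals that leave out 0.

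Notch1, the main Notch receptor of retinal progenitors (Entrez 18128, chromosome 2, 26457902 to 26503822), had 10902, 9777 and 9775 counts in the libraries labelled Zfp292-OE. The controls had 6949 and 12696, so the 3 libraries agreed closely and lay between controls that were 1.83-fold apart. The log2 fold change was 0.11 (SE 0.23, 95% interval -0.40 to 0.62), -0.11 after scaling to equal totals and -0.08 after quantile normalization. The limma adjusted p was 0.77, and the interval in folds was 0.757 to 1.54. Notch1 too overlaps non-coding genes of the opposite strand, by 1068 exon bases with 0610009E02Rik and 414 with Gm13568. The first of these had 111, 92.1 and 35.6 counts in the libraries labelled Zfp292-OE and 134 and 153 in the controls. Gm13568 was not analysed here. Whether these genes share reads with Notch1 was not tested, so part of its reads is uncertain.

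Notch2, a receptor known in the eye from the developing ciliary body (Entrez 18129, chromosome 3, 98013538 to 98150367), had 297, 287 and 172 in the libraries labelled Zfp292-OE and 248 and 400 in the controls. Library 3 was the lowest of all 5, and the groups overlapped, with a log2 fold change of -0.37 (SE 0.49, 95% interval -1.46 to 0.72; limma adjusted p = 0.64). Gm42820, an unclassified transcript on the same strand that was not analysed here, shares 541 exon bases with Notch2, so part of its reads is uncertain too.

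The receptors outside the 10 did not pass either. Notch3, a receptor of mural cells, had 487, 437 and 513 in the libraries labelled Zfp292-OE and 345 and 497 in the controls (log2 fold change 0.21, SE 0.37, limma adjusted p = 0.74), although 4 of the other mural markers fell. Notch4, known from endothelium, had 1677, 1174 and 1323 against 903 and 1271 (0.36, SE 0.28, limma adjusted p = 0.41).

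Mfng, manic fringe (Entrez 17305, chromosome 15, 78755882 to 78773516), had 4305, 7368 and 7368 counts in libraries 1, 2 and 3 labelled Zfp292-OE. The controls had 4505 and 4410. Libraries 2 and 3 matched each other and were above both controls, while library 1 was just below them. On the log2 scale the difference was 0.47 (SE 0.24, 95% interval -0.07 to 1.003; limma adjusted p = 0.21). Mfng passed in 1 alternative, the fit without library 1 labelled Zfp292-OE (0.72, limma adjusted p = 0.039). Over the alternatives that kept both controls the adjusted p ran from 0.039 to 0.51, the latter in limma after scaling to equal totals.

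Lfng, lunatic fringe (Entrez 16848, chromosome 5, 140607341 to 140615545), had 1938, 2007 and 1733 in the libraries labelled Zfp292-OE and 2070 and 1391 in the controls. The 3 values lay between the controls. The log2 fold change was 0.15 (SE 0.25, 95% interval -0.39 to 0.70; -0.06 after scaling to equal totals), with a limma adjusted p of 0.70. Rfng, radical fringe (Entrez 19719, chromosome 11, 120780745 to 120784251), had 5876, 5382 and 4641 against 5179 and 6189, again overlapping, with a log2 fold change of -0.10 (SE 0.18, 95% interval -0.50 to 0.30; limma adjusted p = 0.73).

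The controls lay well apart from each other for several of these genes, though not for all. Control library 2 had at least 1.5 times the value of control library 1 for 6 of the 10 (Dll1, Dll4, Jag1, Jag2, Notch1 and Notch2, by 1.61 to 2.06 times), and for 14.5% of all genes tested. Lfng went the other way, at 0.672 times, while Dll3, Mfng and Rfng were at 1.079, 0.979 and 1.195 times. Among the libraries labelled Zfp292-OE the highest value was at least 1.5 times the lowest for 6 of the 10 (Dll3, Dll4, Jag1, Jag2, Notch2 and Mfng), and for 44% of genes tested. Notch1 was the steadiest in that group, at 1.11 times, and Jag2 the least steady, at 4.02 times.

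Levels can be set roughly side by side between genes once they are divided by length, here the merged exons of GENCODE M21. Merged exons take in every annotated exon of a gene, 14232 bases for Notch1 and 2505 for Lfng. A single transcript can be shorter, which would raise the level of its gene. Other lengths were not tried, so the order holds for this length only. Per kb of exon, Mfng and Rfng were the most abundant in the libraries labelled Zfp292-OE, at 2235 ± 623 and 2129 ± 250 normalised counts (SD, n = 3), followed by Dll3 at 1658 ± 560. Neighbours among these did not differ beyond their spread. Dll1 (975 ± 174), Lfng (756 ± 56.9) and Notch1 (713 ± 45.7) came next. The values of Lfng and Notch1 overlapped across libraries, although with this length Lfng was the higher of the pair within each. Dll4 (302 ± 123) was apart from Notch1 above it and from Jag1 (34.8 ± 17.2) below it. Notch2 (23.3 ± 6.44) and Jag2 (18.4 ± 15.3) closed the order, with overlapping values.

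In the control libraries the order per kb was led by Rfng at 2284 ± 287 (SD, n = 2), apart from Mfng at 1570 ± 23.8, which overlapped Dll3 at 1503 ± 80.3. Dll1, Lfng and Notch1 overlapped in turn, at 945 ± 419, 691 ± 192 and 690 ± 286. Across libraries Dll4 (142 ± 69.5) overlapped Jag2 (83.3 ± 37.2), which overlapped Jag1 (72.1 ± 34.0), and Notch2 was lowest at 30.1 ± 9.97. Within each control library Dll4 was above Jag2 and Jag2 above Jag1, at 92.8, 57.0 and 48.1 in library 1 and 191, 110 and 96.1 in library 2.

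The make-up of the ligands followed from this. Dll1 and Dll3 together held most of the ligand reads per kb in all 5 libraries. Dll4 made up 8.08%, 10.2% and 11.1% in libraries 1, 2 and 3 labelled Zfp292-OE, against 4.05% and 5.98% in the controls. Per library, Dll4 relative to Dll1 was 0.200, 0.355 and 0.355, against 0.143 and 0.154. Both measures were above both controls in each library labelled Zfp292-OE, although the level of Dll4 itself overlapped. Groups did not overlap in level for 49.9% of all genes tested, so such a separation is common here. For the ratios Jag2 to Jag1, Dll3 to Dll1, Mfng to Lfng and Mfng to Rfng the groups overlapped. The 2 Jagged genes made up 2.96%, 2.08% and 0.869%, against 4.58% and 6.43%. These shares are descriptions with no test, and whether reads of Gm14207 enter those of Dll4 was not tested.

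Among receptors Notch1 held 72.1% to 75.2% of reads per kb in the libraries labelled Zfp292-OE and 73.3% and 77.7% in the controls. Notch4 held 15.9% to 19.6% against 13.7% and 16.8%, and Notch2 1.71% to 2.91% against 3.24% and 3.46%. Among fringes Mfng held 32.6%, 46.7% and 50.4% in libraries 1, 2 and 3 labelled Zfp292-OE and 35.3% and 33.8% in the controls, so library 1 was placed with the controls. Mfng relative to Rfng was 0.642, 1.20 and 1.39, against 0.763 and 0.625.

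**Figure D3:**
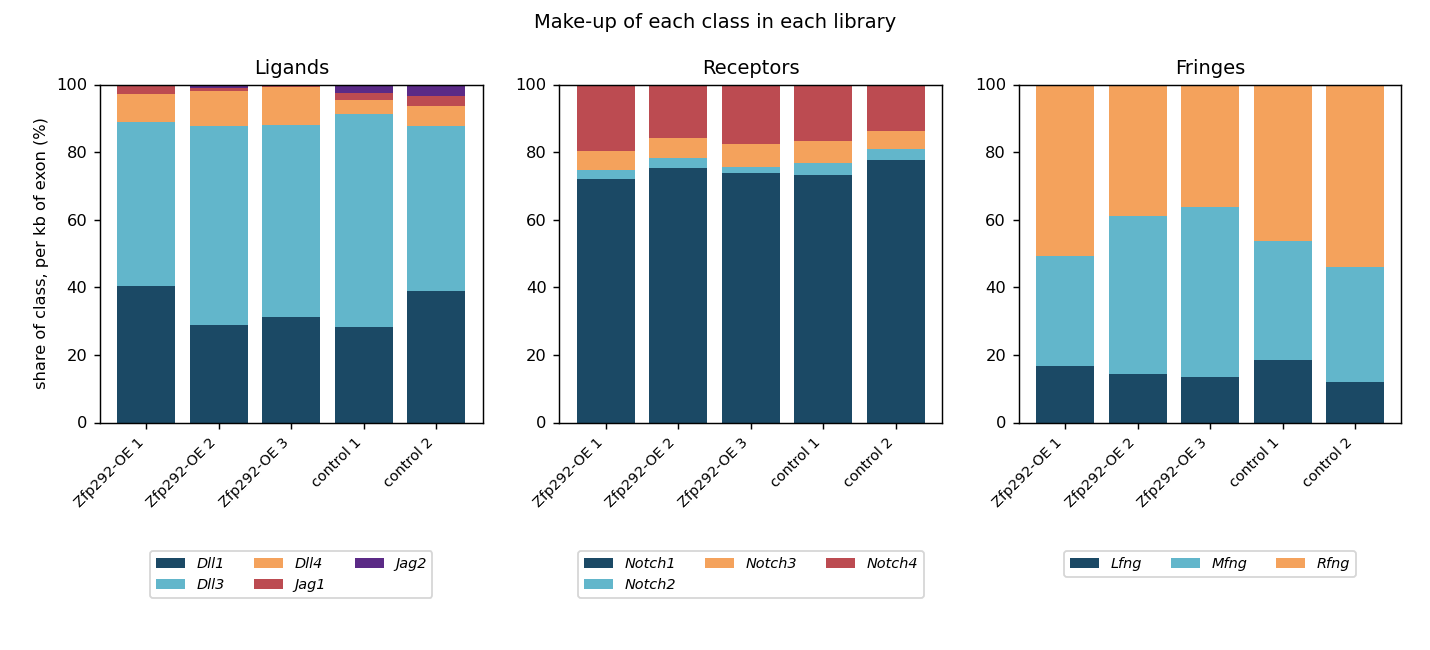
Share of each gene within the ligands, receptors and fringes (y axis, percent of normalised counts per kb of exon) in each of the 5 libraries, those labelled Zfp292-OE at the left; Notch3 and Notch4 are included among receptors. Dll4 takes 8.08% to 11.1% of ligands in the libraries labelled Zfp292-OE against 4.05% and 5.98% in the controls, and the Jagged genes 0.869% to 2.96% against 4.58% and 6.43%.

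Further genes of the pathway changed in both directions. Of 77 tested genes in 10 lists of further Notch pathway genes and proneural factors, 9 rose, 12 fell and 56 did not pass. Thus 27.3% passed, beside 17.4% of all genes tested. The lists were chosen with earlier results of these data known. Their shares, here and list by list below, therefore cannot show that the pathway is called more often than other genes. The median log2 fold change of the 77 genes was -0.04. The split was 7 and 15 after scaling to equal totals and 8 and 5 after quantile normalization. Without library 1 labelled Zfp292-OE 11 passed in limma. Fits with 1 control left cannot show whether a call holds, so their calls are not counted here.

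Targets of the pathway rose or did not pass: 4 of 9 tested rose and 0 fell, with a median of 0.61. Over all genes tested 10% rose. Hes1, the repressor that keeps progenitors undifferentiated, had 38746, 36496 and 37601 counts in the libraries labelled Zfp292-OE and 15292 and 18126 in the controls, or 1.18 on the log2 scale (SE 0.14, limma adjusted p = 0.00072). Id2 rose by 1.29, Hes5 by 1.17 and Id1 by 0.92, while Id3, which like Id1 and Id2 blocks the DNA binding of helix-loop-helix proteins, had 0.40 (limma adjusted p = 0.095). Id genes are also targets of other pathways. Heyl (0.61), Hey1 (0.34), Nrarp (0.29) and Hey2 (0.12) did not pass, at limma adjusted p of 0.10, 0.24, 0.27 and 0.73. They are named to complete the list of 9.

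The proneural factors, some of which are known to switch on Delta genes, gave 3 that rose, 1 that fell and 4 that did not pass among 8 tested. Atoh7, the factor of ganglion cell fate, had 4155, 5013 and 8674 in the libraries labelled Zfp292-OE against 865 and 759 (log2 fold change 2.80, SE 0.30, limma adjusted p = 0.00052). Hes6, an antagonist of Hes1, rose by 0.90, and Insm1, a zinc finger factor of newborn neurons, fell by 0.87. Neurog2 had 0.40 (limma adjusted p = 0.32).

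The proteins that let the sending cell pull on its ligand moved unequally. Among 6 genes 1 rose and 3 fell, while 2 did not pass. The ubiquitin ligase Neurl1b had 940, 742 and 430 counts in the libraries labelled Zfp292-OE against 75.2 and 213, with a log2 fold change of 2.39 (SE 0.55, limma adjusted p = 0.018). The value was 1.65 without control library 1 and 3.14 without control library 2. Without library 1 labelled Zfp292-OE it was 2.15, and the call was lost (limma adjusted p = 0.068). Its relative Neurl1a had 276, 537 and 605 against 1736 and 1872 (-2.01, SE 0.38, limma adjusted p = 0.0074). The ligase Mib2 fell by 1.55 and the endocytic adaptor Epn2 by 0.83. Mib1, the main ubiquitin ligase for Notch ligands in mammals, had 10300, 8865 and 10174 against 9422 and 10049, a log2 fold change of 0.00 (SE 0.15), and is named here after its value was seen. Epn1 had -0.58 (limma adjusted p = 0.40).

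Among the non-canonical ligands 2 of 4 fell and 2 did not pass. Dlk1, which lacks the domain that activates Notch, had 148, 139 and 326 in the libraries labelled Zfp292-OE against 1172 and 672 (log2 fold change -2.23, SE 0.51, limma adjusted p = 0.017). The adhesion protein Cntn1 fell by 0.95, and Dner, a neuronal membrane protein with epidermal growth factor repeats, had -0.75 (limma adjusted p = 0.055). Of 7 enzymes that put sugars on Notch, 2 fell and 5 did not pass. Pofut1, which adds the O-fucose that fringes extend, had 789, 1113 and 1000 against 1618 and 2003 (-0.91, SE 0.27, limma adjusted p = 0.045). Leaving out any 1 library labelled Zfp292-OE ended the call of Pofut1. Xxylt1, a xylosyltransferase, fell by 0.94. Gxylt1 had 0.41 (limma adjusted p = 0.18).

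The machinery that cuts the receptor and the complex that carries its signal showed no calls in limma. Of 9 genes of the metalloproteases and gamma-secretase 0 passed, with values between -0.51 and 0.39. The catalytic subunit Psen2 had -0.50 (limma adjusted p = 0.14, edgeR 0.10, lowest adjusted p of any alternative 0.047). In the nuclear complex 0 of 8 genes passed, with values between -0.34 and 0.46. Snw1 had 0.46 (adjusted p = 0.057 in limma, 0.09 in edgeR and 0.015 in DESeq2). Rbpj, the DNA-binding partner of Notch, had 4084, 4031 and 4530 in the libraries labelled Zfp292-OE against 4400 and 5088 (-0.17, SE 0.17, limma adjusted p = 0.53). Rbpj too is named after its value was seen.

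Of 12 co-repressor genes, 1 rose, 2 fell and 9 did not pass. Bend6, a protein that binds Rbpj and limits Notch output, had 680, 816 and 628 in the libraries labelled Zfp292-OE against 1547 and 1458 (log2 fold change -1.09, SE 0.28, limma adjusted p = 0.026). The Groucho family gene Tle2 fell by 1.71 and the histone deacetylase Hdac1 rose by 0.70. Leaving out any 1 library labelled Zfp292-OE ended the call of Hdac1. Of 13 negative regulators, 0 rose, 2 fell and 11 did not pass. Numbl, a relative of the Notch inhibitor Numb, fell by 1.22 and Dtx3, a deltex family ligase, by 0.77, and Ccnc, the cyclin partner of Cdk8, had 0.60 (limma adjusted p = 0.056).

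Of the 21 pathway genes called, 9 held in each of the 3 fits that left out a library labelled Zfp292-OE (Hes1, Hes5, Id1, Id2, Hes6, Atoh7, Cntn1, Dlk1 and Neurl1a). Of the other 12, Hdac1 and Pofut1 held in 0 of the 3 and 10 in 1 or 2. Among the named genes, leaving out library 1 labelled Zfp292-OE ended the calls of Neurl1b, Epn2, Pofut1, Xxylt1, Hdac1, Tle2, Bend6, Numbl and Dtx3 (limma adjusted p 0.056 to 0.11). Without library 2 those of Epn2, Pofut1, Hdac1 and Insm1 were lost (0.052 to 0.086), and without library 3 those of Mib2, Pofut1, Xxylt1, Hdac1, Tle2, Bend6 and Insm1 (0.051 to 0.082).

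**Figure D4:**
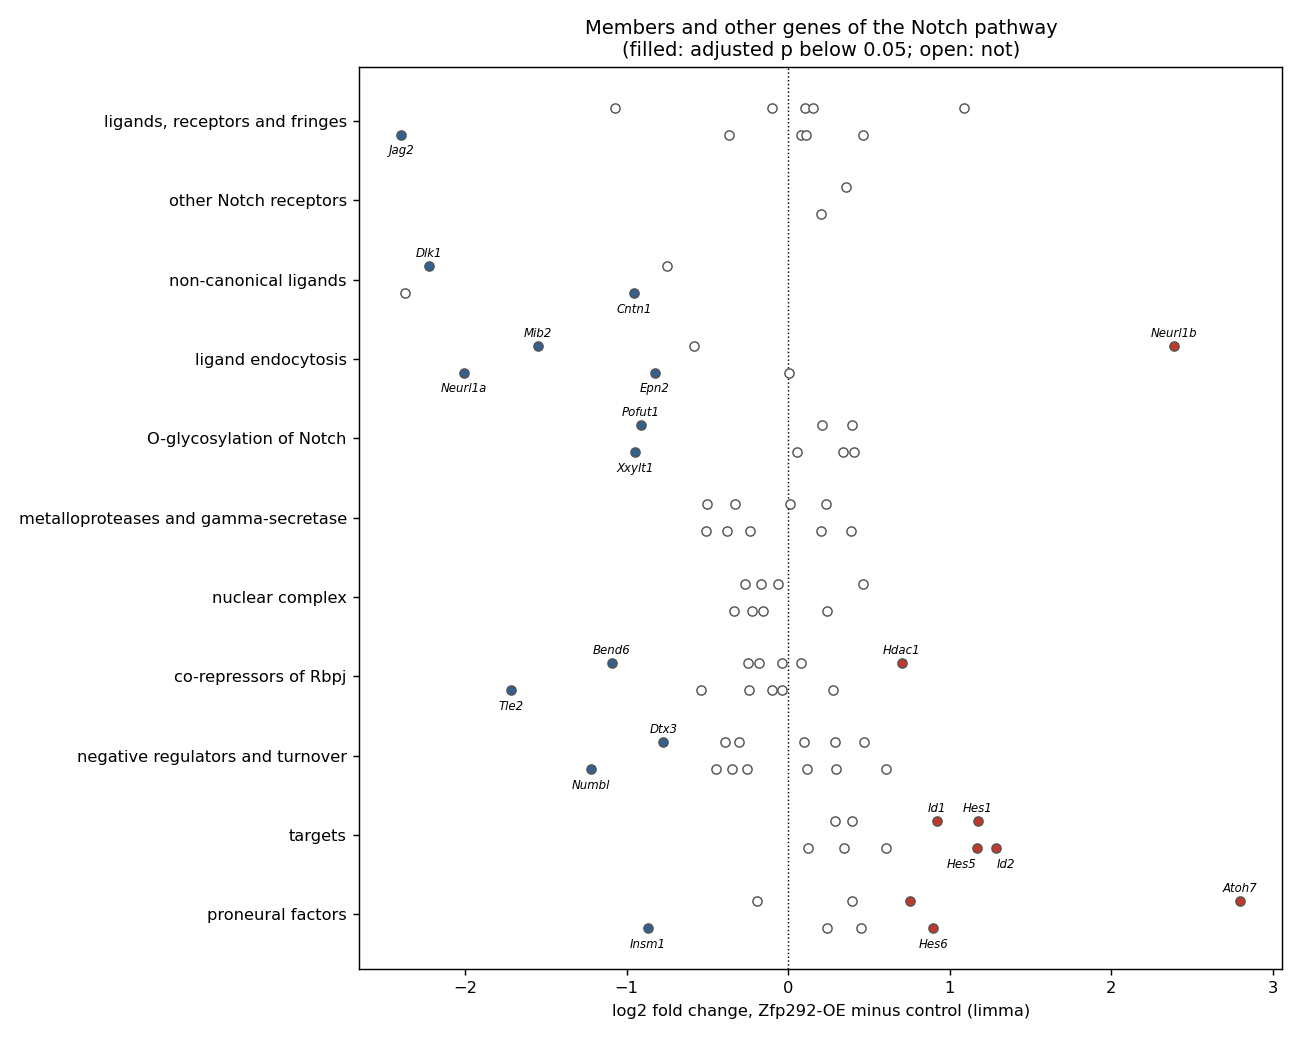
Log2 fold change (x axis, limma, libraries labelled Zfp292-OE minus control) of each tested gene, 1 point a gene, by list; red and blue points have an adjusted p below 0.05 and open points do not. Jag2 is the 1 filled point of 10 in the top line, while 4 of 9 targets are filled on the right.

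The promoters of the genes that differed most are shown with those of Lfng and of the target Hes5, because the last 2 carry the core letters of the Rbpj site. RefSeq promoters of GRCm38.p6, which run from 250 bases before to 50 bases after a transcript start, were matched for 9 of the 10 genes in 10 promoters (2 for Dll1). Capitals mark TGGGAA (Rbpj), CACNAG (the Hes N-box) and CAGCTG (an E-box), each searched on both strands, as was CAGATG (another E-box). No match overlapped one of another motif. The coordinates, in the order shown, are chr12:112929446-112929745 (minus strand), chr2:119325534-119325833 (plus), chr5:140607091-140607390 (plus) and chr4:154960673-154960972 (plus).
Jag2: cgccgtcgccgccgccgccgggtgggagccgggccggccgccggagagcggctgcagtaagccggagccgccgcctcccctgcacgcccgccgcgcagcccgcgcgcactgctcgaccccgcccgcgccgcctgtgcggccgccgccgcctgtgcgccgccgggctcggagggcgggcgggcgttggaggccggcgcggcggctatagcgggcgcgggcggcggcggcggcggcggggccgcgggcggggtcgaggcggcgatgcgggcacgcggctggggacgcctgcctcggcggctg
Dll4: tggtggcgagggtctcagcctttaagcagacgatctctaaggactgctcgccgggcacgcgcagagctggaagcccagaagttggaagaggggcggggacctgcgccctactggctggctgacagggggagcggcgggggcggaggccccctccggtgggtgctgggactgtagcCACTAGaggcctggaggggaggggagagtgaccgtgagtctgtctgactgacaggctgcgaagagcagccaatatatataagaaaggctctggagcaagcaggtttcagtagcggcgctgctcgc
Lfng: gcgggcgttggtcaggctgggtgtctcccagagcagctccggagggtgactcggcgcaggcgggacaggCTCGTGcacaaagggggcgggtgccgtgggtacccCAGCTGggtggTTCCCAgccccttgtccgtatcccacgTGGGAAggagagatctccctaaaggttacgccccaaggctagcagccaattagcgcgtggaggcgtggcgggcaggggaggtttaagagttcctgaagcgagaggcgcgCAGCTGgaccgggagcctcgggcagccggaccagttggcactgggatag
Hes5: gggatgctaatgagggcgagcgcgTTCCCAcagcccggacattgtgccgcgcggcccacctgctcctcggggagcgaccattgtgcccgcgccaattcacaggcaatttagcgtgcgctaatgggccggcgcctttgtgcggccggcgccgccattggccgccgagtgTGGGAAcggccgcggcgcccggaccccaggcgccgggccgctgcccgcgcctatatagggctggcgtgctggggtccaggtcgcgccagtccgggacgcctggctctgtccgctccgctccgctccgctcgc
The Jag2 window shown held none of the 4 motifs. It lies inside the gene, whose first base on the minus strand is 112929812. The bases before that position were not searched, so motifs there cannot be told. The Hes5 window also lies inside its gene, which begins at 154960626. The promoter of Dll4 held 1 N-box, at -75 to -70 from the start.

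TGGGAA was found in the promoter of 1 of the 9 genes, Lfng, at -135 to -130 and -108 to -103, and in 25.6% of 32851 promoters of the same length. The Hes5 promoter held it at -226 to -221 and -82 to -77. The N-box was in the promoters of 6 of the 9 (Dll1, Dll4, Lfng, Notch1, Notch2 and Rfng) and in 42.5% of all, CAGCTG in 4 of the 9 (Dll1, Dll3, Jag1 and Lfng) and in 16.3% of all, and CAGATG in 0 of the 9 and in 17.2% of all. Lfng, with 5 matches in its promoter, had the level reported above, with groups that overlapped. A match here is a match of letters only.

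**Figure D5:**
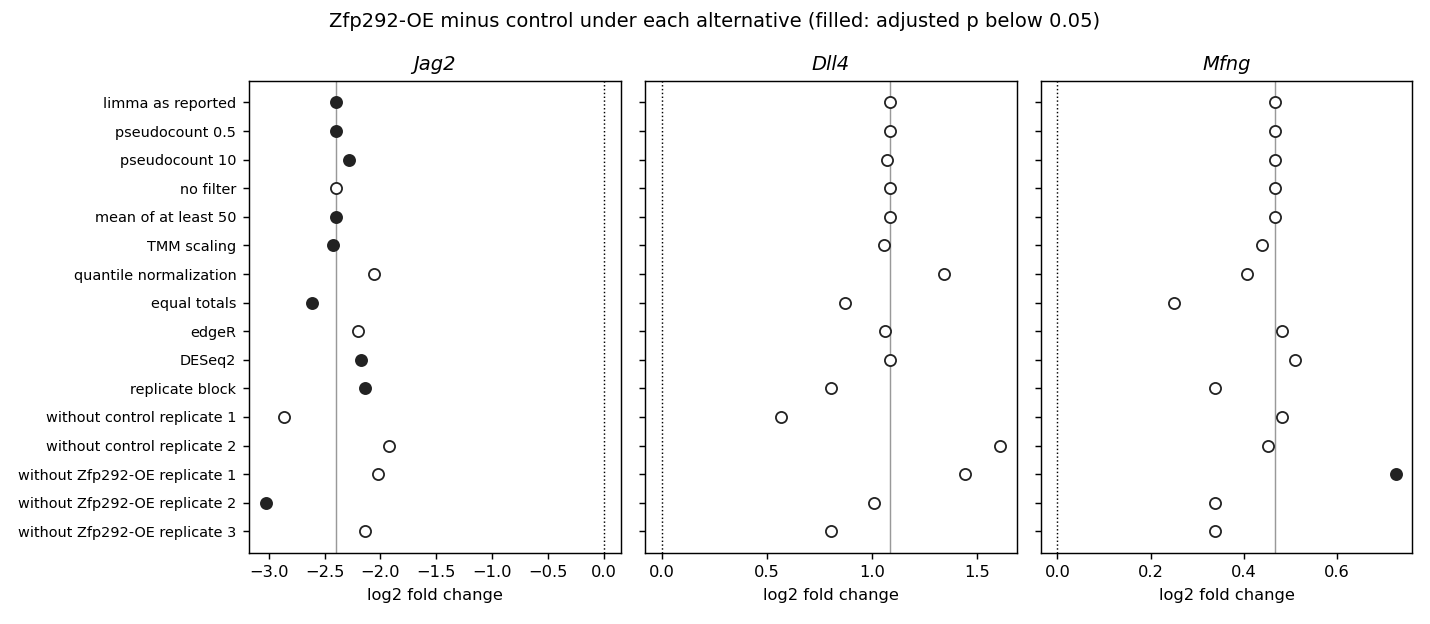
Log2 fold change (x axis, libraries labelled Zfp292-OE minus control) of Jag2, Dll4 and Mfng in the limma fit reported and in each of 15 alternatives; filled points have an adjusted p below 0.05, and the grey line is the reported value. Jag2 is filled in 8 alternatives, all with both controls, and stays at -1.92 or below. Dll4 is filled in none and Mfng in the fit without library 1 labelled Zfp292-OE. Open points of fits with 1 control left cannot show whether a call holds.

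The width of the intervals limits what the 9 genes that did not pass can show. The 95% intervals in folds ran from 0.704 to 1.64 for Dll1, 0.689 to 1.62 for Dll3, 0.761 to 1.63 for Lfng and 0.707 to 1.23 for Rfng.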

How the data were processed

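The authors deposited 1 table of 24594 genes by 5 libraries (0 columns of other samples). Its values are a normalised signal per gene: the deposited numbers are read counts scaled by a single factor in each library, since 100% of them are whole multiples of that library's smallest value above 0, within 1e-06 of a read. The submitters' processing notes name the builds GRCm38 and mm10. Aligner, counter, annotation, strandedness and scaling method: not given in the sources used here. Per the labels' protocols, a SMARTER kit was used on 1.3 µg of total RNA.

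limma 3.58.1 with a mean trend (R 4.3.3) was run on log2(value + 1) for genes averaging 10 or more, libraries labelled Zfp292-OE over control, at a threshold of 0.05 after Benjamini-Hochberg adjustment across all tested genes. Fold changes are on that scale. Whole reads recovered from the values went into edgeR 4.0.16 (quasi-likelihood test, 2621 genes called) and into DESeq2 1.42.0 (4167 called) as alternatives. The other alternatives were pseudocounts of 0.5 and 10, no filter or one at 50, TMM, quantile and equal-total scaling, a replicate block and each library left out. The fit was tested on simulated data with known changes. The 10 genes and all lists were chosen with earlier results of these data known. Beyond the 10, each list's called genes (at most 4, by smallest p) and its uncalled gene with the smallest p are named, except some that are not reported here. Gene positions are from RefSeq (GRCm38.p6) and exon lengths from GENCODE M21.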

Additional observations from a re-analysis of the deposited data

How the results depend on the processing

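All genes called in limma numbered 2836 (1632 higher, 1204 lower in the libraries labelled Zfp292-OE) and 2182 to 4167 under the alternatives that kept all 5 libraries, with 913 higher and 1988 lower after scaling to equal totals, which moved the median of all genes to -0.27, against -0.06 in the reported fit. In the limma fits that left out 1 library labelled Zfp292-OE the count was 1657 to 2352, lowest without library 1. With 1 control left, that library is assumed to vary like the others, so counts of those fits are not given. Of the 10 Notch genes 1 was called, and 0 with no filter, after quantile normalization or in edgeR. When a library labelled Zfp292-OE was left out, 0 to 1 was called. Without library 1 labelled Zfp292-OE the gene called was Mfng and not Jag2. Further pathway genes called numbered 21 (9 higher, 12 lower), 28 in DESeq2 (14 and 14) and 13 after quantile normalization. They numbered 11 to 16 when a library labelled Zfp292-OE was left out. Values that turned sign all belonged to genes that did not pass: after scaling to equal totals Dll1 (-0.11), Dll3 (-0.14), Lfng (-0.061) and Notch1 (-0.11), after quantile normalization Notch1 (-0.085), and with a library left out Dll1 (-0.36 to 0.57), Dll3 (-0.13 to 0.39), Lfng (-0.13 to 0.44), Notch1 (-0.32 to 0.54) and Rfng (-0.23 to 0.026). A replicate block, which uses libraries 1 and 2 of each group, called 3196 genes, 1 of the 10 and 22 further pathway genes, and turned Dll1 (-0.037) and Dll3 (-0.13). The numbers do not pair the libraries by the labels, and deviations of same-numbered libraries correlated at -0.0386 and -0.0272 across genes. The cause of these changes was not tested. Jag2, Jag1 and Dll4 kept their direction in all 15 alternatives. Jag2 rests on 54 to 267 reads in the libraries labelled Zfp292-OE.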

Other observations

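The 3 genes whose log2 values were most like those of Jag2 over the 5 libraries, among genes with a mean of at least 50, were Chd5, Usp53 and Wwc1, named by a rule of highest likeness. As a description with no test, Pearson's r was 0.9991 for Chd5, 0.9991 for Usp53 and 0.9982 for Wwc1, and 203 genes had an r above 0.95. The 5 points share their libraries and fall into 2 groups.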
